A study of Mus musculus with 5 samples.

Results

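Fbxw13, Fbxw14, Fbxw16, Fbxw17 and Fbxw19 are 5 rodent F-box genes of the Fbxw type. They were taken from the sheet of F-box genes by the first gene symbol of each probe set, a rule that uses no measured value. The members were, however, chosen with earlier results of these data known. Of 71 genes in the 2 deposited sheets, which cover F-box proteins and cullins, these are 5, and 7 of the 130 probe sets read them. Fbxw13, Fbxw17 and Fbxw19 had 1 probe set each, and Fbxw14 and Fbxw16 had 2 each.

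Expression was measured on Affymetrix arrays in left ventricle, cardiomyocytes (CM), failing cardiac fibroblasts, lung fibroblasts and non-failing cardiac fibroblasts. All mice were male and 6 months old, and RNA of 5 mice was pooled into each sample, so that there was 1 sample per condition and no replicate check. Left ventricle, CM, lung fibroblasts and non-failing cardiac fibroblasts came from healthy C57Bl/6N mice, whereas failing cardiac fibroblasts came from beta1-adrenergic transgenic mice with heart failure, whose background strain and the promoter of whose transgene the labels and methods do not state. In RNA of tissue or of isolated cells, fewer cells of a type and less RNA per cell cannot be told apart, and the labelled cell types were not checked against their markers, because the other probe sets of the array were not paired with gene names here.

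F-box proteins are the interchangeable subunits that choose the substrate of SCF ubiquitin ligases, in which the cullin Cul1 is the scaffold. Fbxw proteins hold an F-box, which binds Skp1, and most carry WD40 repeats, which bind the substrate. Members of the rodent Fbxw expansion are known mainly from the mouse oocyte.

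The position of the genes was looked up in RefSeq, mouse assembly GRCm38.p6, in which all 5 symbols were found. Fbxw13 (chr9:109179227-109195975), Fbxw14 (chr9:109270789-109287729), Fbxw16 (chr9:109432318-109449140) and Fbxw19 (chr9:109478507-109495863) lay in a stretch of 651.2 kb on chromosome 9. This stretch held 15 protein-coding genes, and all 15 were Fbxw genes. The sheets read 4 of these 15, and the other 11 were not in the sheets. Fbxw16 and Fbxw19 were the closest pair among the 4, at 29.4 kb from each other. Fbxw17 lay outside the cluster, on chromosome 13 (chr13:50417835-50433781), so the name of a single gene cluster holds for 4 of the 5 genes.

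**Figure D1:**
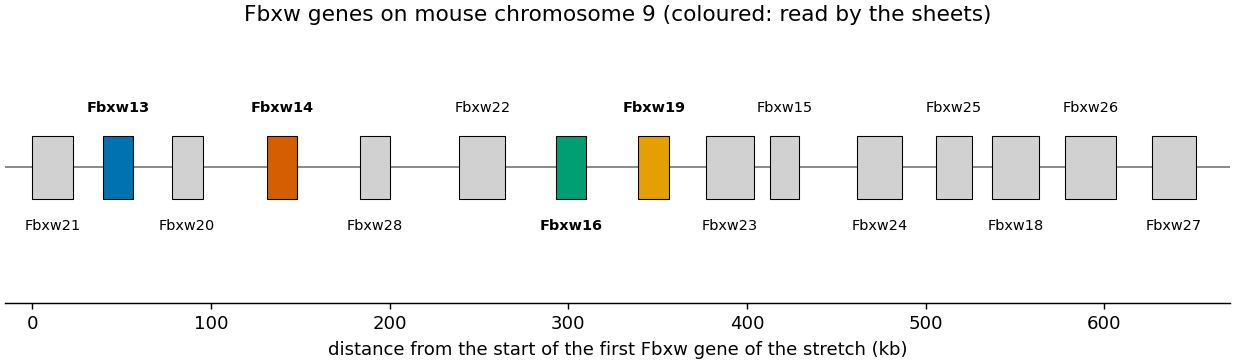
Map of the Fbxw stretch on mouse chromosome 9, drawn to scale, with the distance in kb from the start of its first gene on the horizontal axis and 1 box per protein-coding gene from start to end. The 4 coloured genes are those read by the sheets, the 11 grey ones are not in the sheets, and Fbxw17 is absent because it lies on chromosome 13.

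Promoter windows are shown because neighbouring copies of a gene family can share sequence, and because 1 probe set of Fbxw14 also names a neighbouring gene. Each window is the 300 bases from 250 before to 50 after the start given in the RefSeq promoter table (GRCm38.p6), in which 4 of the 5 members were matched. For Fbxw14, Fbxw17 and Fbxw19 this start lies inside the gene span given above, so the windows do not hold the same place relative to the ends of the genes. The windows lie at chr9:109287627-109287926 for Fbxw14, chr9:109339610-109339909 for Fbxw28, chr9:109449091-109449390 for Fbxw16 and chr9:109495805-109496104 for Fbxw19, all on the minus strand, and at chr13:50417614-50417913 on the plus strand for Fbxw17. They are written 5′ to 3′, and capitals mark the pair of 29-base runs that Fbxw14, Fbxw16, Fbxw19 and Fbxw28 hold without a mismatch.
Fbxw14: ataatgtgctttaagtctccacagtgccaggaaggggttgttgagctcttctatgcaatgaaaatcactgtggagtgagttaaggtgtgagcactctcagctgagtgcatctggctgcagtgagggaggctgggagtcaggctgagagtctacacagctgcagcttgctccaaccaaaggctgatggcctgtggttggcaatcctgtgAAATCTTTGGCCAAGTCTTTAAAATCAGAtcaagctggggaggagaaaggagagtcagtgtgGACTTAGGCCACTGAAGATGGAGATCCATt
Fbxw28: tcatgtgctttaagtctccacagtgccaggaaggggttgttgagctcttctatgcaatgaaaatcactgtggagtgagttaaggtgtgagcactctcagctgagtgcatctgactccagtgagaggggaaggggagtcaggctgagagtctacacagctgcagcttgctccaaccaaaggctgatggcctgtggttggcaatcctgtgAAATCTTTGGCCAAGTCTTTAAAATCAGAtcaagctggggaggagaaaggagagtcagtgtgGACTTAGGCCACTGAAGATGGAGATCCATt
Fbxw16: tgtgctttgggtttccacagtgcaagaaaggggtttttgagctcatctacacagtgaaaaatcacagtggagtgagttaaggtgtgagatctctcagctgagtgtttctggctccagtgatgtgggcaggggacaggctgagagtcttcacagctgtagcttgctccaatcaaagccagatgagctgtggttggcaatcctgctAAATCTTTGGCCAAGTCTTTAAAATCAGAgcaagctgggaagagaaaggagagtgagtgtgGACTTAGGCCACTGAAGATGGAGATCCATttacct
Fbxw19: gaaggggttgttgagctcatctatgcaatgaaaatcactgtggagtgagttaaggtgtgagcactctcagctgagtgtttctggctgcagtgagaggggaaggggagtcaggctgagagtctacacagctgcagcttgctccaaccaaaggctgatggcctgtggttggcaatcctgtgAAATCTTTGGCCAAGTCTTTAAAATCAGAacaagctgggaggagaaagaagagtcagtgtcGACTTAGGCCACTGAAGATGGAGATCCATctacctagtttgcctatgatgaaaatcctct
Fbxw17: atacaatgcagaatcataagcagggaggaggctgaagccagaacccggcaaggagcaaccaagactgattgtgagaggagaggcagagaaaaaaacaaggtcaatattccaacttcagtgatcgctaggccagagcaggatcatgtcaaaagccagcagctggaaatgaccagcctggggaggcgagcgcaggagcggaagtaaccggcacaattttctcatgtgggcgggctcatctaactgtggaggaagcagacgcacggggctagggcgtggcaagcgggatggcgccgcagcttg

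The run AAATCTTTGGCCAAGTCTTTAAAATCAGA, searched on both strands, was found in 5 of 27025 promoter windows of the same length (0.0185%), those of Fbxw14, Fbxw15, Fbxw16, Fbxw19 and Fbxw28. The other run, GACTTAGGCCACTGAAGATGGAGATCCAT, was also found in 5 of 27025 (0.0185%), those of Fbxw14, Fbxw16, Fbxw19, Fbxw24 and Fbxw28. The hexamer TTTAAA, which lies inside the first of these runs, was in 13.2% of all windows, in 10 of the 12 chromosome 9 Fbxw windows searched, and not in that of Fbxw17. These matches describe letters and not binding sites. Aligned without cost for end gaps, Fbxw14 and Fbxw28 matched in 292 bases of their windows (97.3% of the aligned columns). Fbxw14 matched Fbxw19 in 259 bases (95.2%) and Fbxw16 in 261 bases (87.9%), and Fbxw16 matched Fbxw19 in 245 bases. Among all 12 chromosome 9 windows, that of Fbxw23 stood apart, with 6 to 26 matching bases to the others, and the remaining 55 pairs matched in 223 to 292 bases. The pairs of Fbxw23 matched in 53.3% to 66.7% of the aligned columns, which were only 9 with Fbxw14. As end gaps carried no cost, the base counts do not rank Fbxw23 against Fbxw17.

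**Figure D2:**
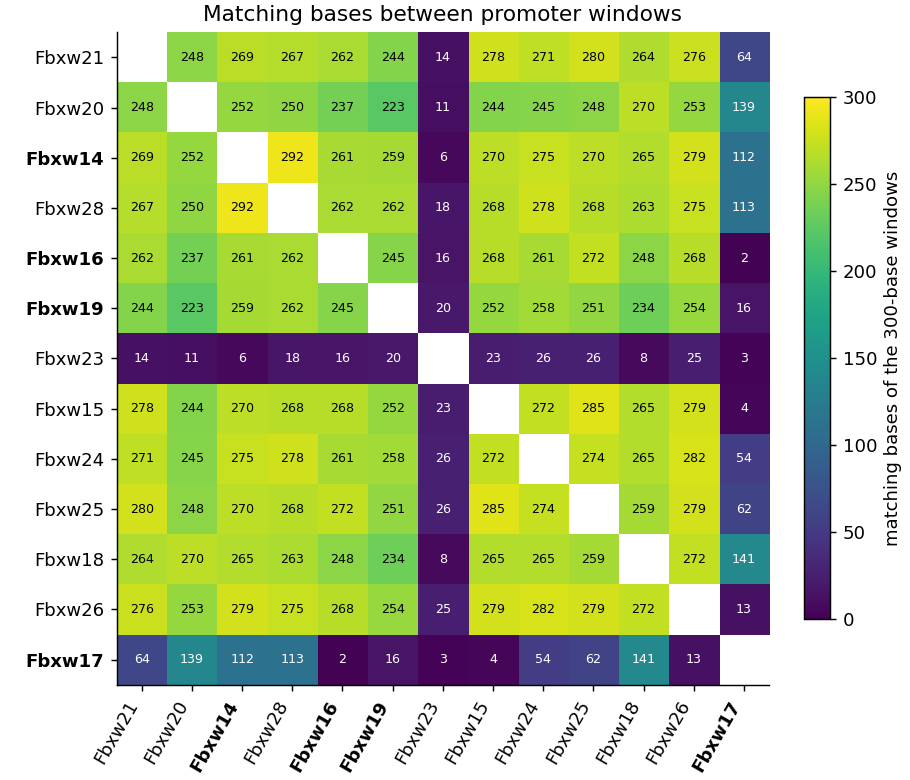
Matching bases between the 300-base promoter windows of 12 chromosome 9 Fbxw genes, in their order along the chromosome, and of Fbxw17, with the members in bold and the colour giving the same number as the cell. Fbxw14, Fbxw16 and Fbxw19 match each other in 245 to 261 bases, while Fbxw17 matches the chromosome 9 windows in 2 to 141, where the length aligned varied widely because end gaps carried no cost.

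The level of each gene in each sample was then examined, on the log2 scale of the sheets. Both cardiac fibroblast samples held all 5 genes at a level of at least 6.0, the lower of the thresholds used for expression on this array, and CM held none. Fbxw14 lay at the threshold itself in non-failing cardiac fibroblasts, at 6.00. In left ventricle Fbxw17 and Fbxw19 were at or over 6.0, and in lung fibroblasts Fbxw17 was. Over all 71 genes of the sheets, 33.8% reached 6.0 in left ventricle, 53.5% in CM, 73.2% in failing cardiac fibroblasts, 49.3% in lung fibroblasts and 74.6% in non-failing cardiac fibroblasts. A level under 6.0 in CM together with at least 6.0 in both cardiac fibroblast samples was seen for 5 of 5 member genes, against 29.6% of all genes. This was 4 of 5 wherever Fbxw14 fell under 6.0 in non-failing cardiac fibroblasts, at 5.81 without 1436744_x_at, 5.42 with equal medians and 4.57 with quantile normalization. At the higher threshold of 6.5, 2 members remained in left ventricle (28.2% of all genes), 0 in CM (43.7%), 5 in failing cardiac fibroblasts (54.9%), 0 in lung fibroblasts (39.4%) and 4 in non-failing cardiac fibroblasts (64.8%).

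Fbxw13 was read by probe set 1443298_at alone, a probe set that names no other gene. Its log2 level was 3.42 in left ventricle, 1.14 in CM, 7.39 in failing cardiac fibroblasts, 4.85 in lung fibroblasts and 7.52 in non-failing cardiac fibroblasts. The cardiac fibroblast samples lay together at the top, with 0.12 between them, and CM lay lowest, 2.28 under left ventricle. On the linear scale the same values were 10.7, 2.21, 168.2, 28.92 and 182.99 intensity units, in that order of samples. A single probe set gives no spread, so the order of neighbouring samples could not be set against one.

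Fbxw14, earlier named Fbxo12, had 2 probe sets. Probe set 1427575_at gave a log2 level of -2.32 in left ventricle, 1.10 in CM, 7.20 in failing cardiac fibroblasts, 5.69 in lung fibroblasts and 5.81 in non-failing cardiac fibroblasts. Probe set 1436744_x_at gave 3.46 in left ventricle, -0.75 in CM, 8.76 in failing cardiac fibroblasts, 2.10 in lung fibroblasts and 6.19 in non-failing cardiac fibroblasts. Both were highest in failing cardiac fibroblasts, whereas the lowest sample was left ventricle for the first and CM for the second. The second probe set is of the _x_at kind, which can bind several transcripts, and its other annotation also names LOC668758 and LOC673189. The gene number 668758 belongs in RefSeq to Fbxw28, so by its annotation the values of this probe set cannot be assigned to Fbxw14 alone. The promoter windows of Fbxw14 and Fbxw28 matched in 292 bases, but most of a window lies before the start and does not show what the probes bind. LOC673189 was not matched to a gene here.

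The mean level of Fbxw14 over its 2 probe sets was 0.57 ± 4.09 in left ventricle, 0.18 ± 1.31 in CM, 7.98 ± 1.10 in failing cardiac fibroblasts, 3.89 ± 2.54 in lung fibroblasts and 6.00 ± 0.27 in non-failing cardiac fibroblasts, where the SD is between probe sets of 1 array and not between mice. In the order of these means, both probe sets placed failing over non-failing cardiac fibroblasts, by 1.39 and 2.57. Both also placed non-failing cardiac fibroblasts over lung fibroblasts, although 1 of them by only 0.13. They disagreed on left ventricle against CM and on lung fibroblasts against left ventricle, so the order of these samples is not settled.

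Fbxw16 was also read by 2 probe sets. Probe set 1439693_a_at gave a log2 level of 1.49 in left ventricle, 5.46 in CM, 6.10 in failing cardiac fibroblasts, 2.60 in lung fibroblasts and 9.32 in non-failing cardiac fibroblasts. Probe set 1439694_at, whose annotation also names Gm7163, gave 6.07 in left ventricle, 5.39 in CM, 8.23 in failing cardiac fibroblasts, 5.41 in lung fibroblasts and 7.27 in non-failing cardiac fibroblasts. The 2 read almost the same value in CM and were far apart in left ventricle, and they placed the cardiac fibroblast samples in opposite order. Their mean was 3.78 ± 3.24 in left ventricle, 5.42 ± 0.05 in CM, 7.16 ± 1.51 in failing cardiac fibroblasts, 4.0 ± 1.99 in lung fibroblasts and 8.29 ± 1.45 in non-failing cardiac fibroblasts (SD of 2 probe sets). Fbxw16 was the member whose lowest sample was left ventricle and not CM. Among neighbours in the order of these means, both probe sets placed failing cardiac fibroblasts over CM, by 0.64 and 2.84, and they disagreed in direction on the other 3 neighbouring pairs.

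Fbxw17, the gene on chromosome 13, was read by 1434991_at. Its log2 level was 7.74 in left ventricle, 3.69 in CM, 8.26 in failing cardiac fibroblasts, 6.11 in lung fibroblasts and 7.59 in non-failing cardiac fibroblasts. CM was again the lowest sample, and Fbxw17 was the one member at or over 6.0 in every sample except CM. Left ventricle and non-failing cardiac fibroblasts were 0.15 apart.

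Fbxw19 was read by 1437316_at. Its log2 level was 6.63 in left ventricle, 1.20 in CM, 6.55 in failing cardiac fibroblasts, 5.17 in lung fibroblasts and 8.50 in non-failing cardiac fibroblasts. Non-failing cardiac fibroblasts stood above the other samples by at least 1.87, and CM stood 3.97 under the next sample, lung fibroblasts. Left ventricle and failing cardiac fibroblasts were 0.08 apart. In linear intensity these levels were 99.2 in left ventricle, 2.29 in CM, 93.62 in failing cardiac fibroblasts, 35.92 in lung fibroblasts and 362.69 in non-failing cardiac fibroblasts.

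Between the lowest and the highest of the 5 samples, the gene level spanned 6.37 for Fbxw13, 7.80 for Fbxw14, 4.52 for Fbxw16, 4.57 for Fbxw17 and 7.31 for Fbxw19 on the log2 scale. The median span over all 71 genes was 3.74. CM was the lowest sample for 4 of the 5 member genes, against 19.7% of all genes. The 4 include Fbxw14, whose probe set 1427575_at was lowest in left ventricle and whose other probe set was lowest in CM. Of the 7 probe sets, 5 were lowest in CM and 2 in left ventricle, and 4 were highest in failing and 3 in non-failing cardiac fibroblasts.

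**Figure D3:**
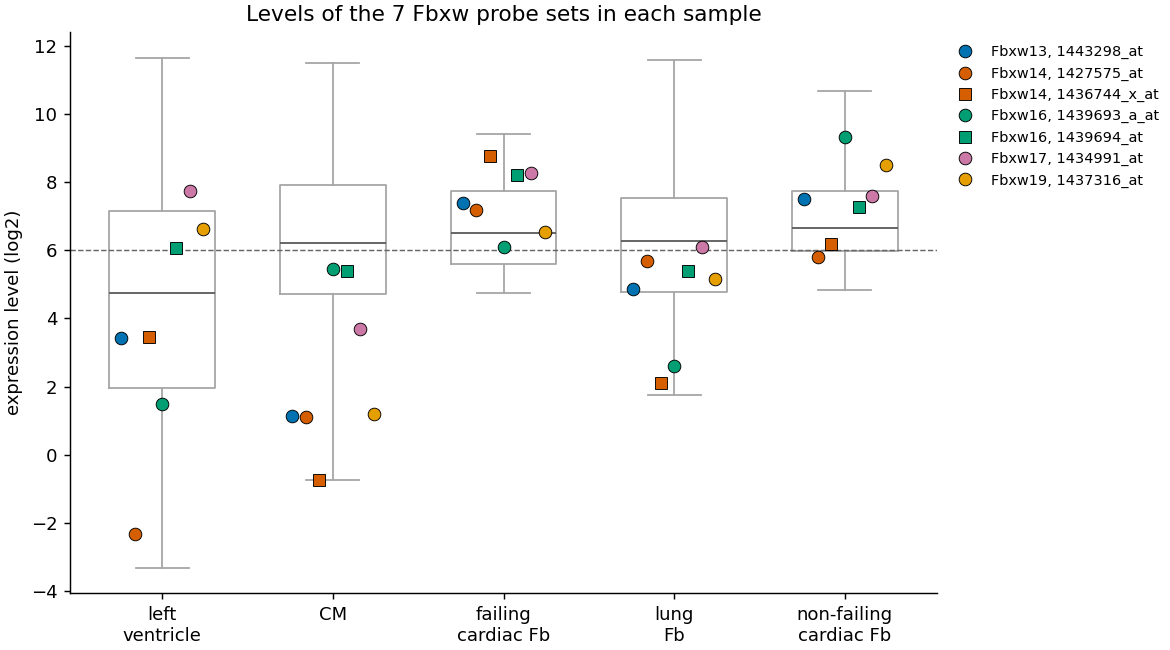
Log2 expression level (vertical axis) of the 7 member probe sets in each of the 5 samples, with the box and whiskers giving the quartiles, median and range of all 130 probe sets of the sheets and the dashed line the level of 6.0. In CM all 7 points lie under 6.0 and 5 lie under the box, whereas in failing cardiac fibroblasts all 7 lie over 6.0 and in non-failing cardiac fibroblasts 1427575_at of Fbxw14, at 5.81, is the single point under it.

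The samples differed in the range of their low values. The lowest of the 130 probe set values was -3.32 in left ventricle, -0.75 in CM, 4.76 in failing cardiac fibroblasts, 1.76 in lung fibroblasts and 4.82 in non-failing cardiac fibroblasts, or 0.1, 0.596, 27.1, 3.39 and 28.3 intensity units in that order. The interquartile range was 5.21 in left ventricle, 3.21 in CM, 2.16 in failing cardiac fibroblasts, 2.78 in lung fibroblasts and 1.79 in non-failing cardiac fibroblasts. A value under 4.76 therefore occurred in neither cardiac fibroblast sample for any gene of the sheets. Of the 7 member probe sets, 4 lay below that value in left ventricle, 5 in CM and 2 in lung fibroblasts. Over the 130 probe sets the shares were 50% in left ventricle, 26.9% in CM and 25.4% in lung fibroblasts, so that the share in CM was higher for the members than the background, and those in left ventricle and lung fibroblasts were near it. The part of these different lower ends in the differences of the members was not tested.

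Measured within each sample's own range, the members also stood low in CM. Below the lower quartile of all probe sets lay 2 of 7 in left ventricle, 5 of 7 in CM, 0 of 7 in failing cardiac fibroblasts, 2 of 7 in lung fibroblasts and 1 of 7 in non-failing cardiac fibroblasts, against 24.6% of all probe sets in left ventricle and 25.4% in each of the other samples. No member lay above the median of the sample in CM or lung fibroblasts, whereas 3 did in left ventricle, 6 in failing cardiac fibroblasts and 5 in non-failing cardiac fibroblasts. In CM, 1436744_x_at of Fbxw14 was the lowest of all 130 probe sets and the single one below 0. Probe sets differ in how well they bind, so these places describe the arrays and not an order of transcript amounts.

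The values of left ventricle were also coarse. The value of 1427575_at in left ventricle was 0.2 intensity units, which 3 probe sets of the sheets shared, those of Fbxw14, Fbxo36 and Fbxw2. All 7 member intensities of left ventricle were recorded with no more than 1 decimal, against 1 in CM, 3 in failing cardiac fibroblasts, 0 in lung fibroblasts and 1 in non-failing cardiac fibroblasts. In left ventricle this held for high values too, such as 213.5 for Fbxw17, whereas the low CM value of Fbxw13 was recorded as 2.21. Fold changes that rest on a value as low as 0.2 carry little precision.

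To ask whether the genes were lower in CM than in fibroblasts of the same organ, CM were set against non-failing cardiac fibroblasts. A gene was counted as different if it differed at least 2-fold and reached 6.0 in CM or in the fibroblasts, and likewise in the other pairs. By this rule all 5 genes were lower in CM, against 36.6% of all 71 genes, and 0 were higher, against 21.1%. As no member reached 6.0 in CM, none could be counted as higher. All 5 met the level rule through the fibroblasts alone, so these counts are not separate from the levels given above. When the samples were scaled to equal medians or to equal quantiles, 4 members were counted as lower, against 26.8% and 28.2% of all genes, and 28.2% and 25.4% of all genes as higher, because Fbxw14 then lay under 6.0 in both samples. The count was likewise 4 when 1436744_x_at was left out, since the other Fbxw14 probe set read 5.81 in non-failing cardiac fibroblasts. Fbxw19 differed by -7.31 on the log2 scale, Fbxw13 by -6.37, Fbxw14 by -5.82, Fbxw17 by -3.90 and Fbxw16 by -2.87. The CM values behind these differences were at most 2.29 intensity units for Fbxw13, Fbxw14 and Fbxw19 and 12.94 for Fbxw17, all below the lower quartile of CM and under any value in the cardiac fibroblast samples. They are not shown to lie above background, so the sizes move with the lower end of each sample and no fold or rank is given. With quantile normalization the difference of Fbxw14 was -2.58, that of Fbxw13 -4.70 and that of Fbxw19 -6.14. All 7 probe sets were lower in CM, against 57.7% of all probe sets, and those of Fbxw14 (-6.94 and -4.71) and Fbxw16 (-3.86 and -1.88) did not differ in direction. In CM 5 of the 7 lay under 4.76 (26.9% of all probe sets), the lowest value in either cardiac fibroblast sample. These 5 could only come out lower, so their direction is no separate result. The median difference was -5.82 over the 5 genes and -0.51 over all genes.

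Left ventricle, which holds CM and other cells, was compared with isolated CM. Fbxw19 was higher by 5.44 and Fbxw17 by 4.04 on the log2 scale in left ventricle, over the same low CM values, so 2 of 5 genes were counted as higher, against 14.1% of all genes, and 0 as lower, against 31%. With no member at 6.0 in CM, none could be counted as lower. Fbxw13 was 2.28 above its value in CM, but its level stayed under 6.0 in both samples. The probe sets of Fbxw14 differed by -3.42 and 4.21 and those of Fbxw16 by -3.98 and 0.68, so that neither gene has a direction here, and 2 of the 7 member probe sets were lower in left ventricle, against 63.1% of all probe sets. Scaling moved the background of this pair, since 38% of all genes were higher and 22.5% lower in left ventricle with equal medians, and the same 2 members were counted. The median difference was 2.28 over the 5 genes and -0.98 over all genes.

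Failing cardiac fibroblasts were compared with non-failing ones to see whether the genes differ in the failing heart. Fbxw14 was higher by 1.98 on the log2 scale, a direction that both probe sets shared (1.39 and 2.57). It was the 1 gene counted as higher, against 19.7% of all genes. The value of 2.57 came from the probe set that cannot be assigned to Fbxw14 alone. The other probe set read 5.81 in non-failing cardiac fibroblasts, under the lower quartile of that sample, 5.97. Over the alternatives the difference of Fbxw14 ranged from 1.39 to 3.64, the latter with quantile normalization, so its size is not settled. Fbxw19 differed by -1.95 (3.87-fold lower) and Fbxw16 by -1.13, so 2 genes were counted as lower, against 22.5% of all genes. For Fbxw16 the probe sets differed by -3.22 and 0.96, in opposite directions. Of the 7 member probe sets, 3 were lower in failing cardiac fibroblasts, against 53.8% of all probe sets. Fbxw13 differed by -0.12 and Fbxw17 by 0.67, within the 2-fold limit. The median difference was -0.12 over the 5 genes and -0.13 over all genes, so the 5 genes did not move as a group in this pair. The transgene, the strain background and the disease state cannot be told apart in this comparison.

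Lung fibroblasts were set against non-failing cardiac fibroblasts to compare fibroblasts of another organ. All 5 genes were counted as lower in lung fibroblasts, against 42.3% of all genes, and 0 as higher, against 14.1%. With equal medians 4 were lower, against 28.2% of all genes, while 23.9% of all genes were then higher. The count was also 4 without 1436744_x_at, where Fbxw14 differed by -0.13, and with the highest probe set of each gene. The difference was -2.66 for Fbxw13, -2.11 for Fbxw14, -4.29 for Fbxw16, -1.48 for Fbxw17 and -3.34 for Fbxw19. The probe sets of Fbxw16 differed by -6.72 and -1.86, so the size of its difference rests on 1439693_a_at, at 6.06 intensity units in lung fibroblasts. All 7 probe sets were lower, against 55.4% of all probe sets, although 1427575_at of Fbxw14 differed by only -0.13 and the other Fbxw14 probe set by -4.09. In lung fibroblasts 2 of the 7 lay under 4.76 (25.4% of all probe sets), below any cardiac fibroblast value, and could only come out lower. The median was -2.66 over the 5 genes and -1.08 over all genes. This pair, the failing pair and the CM pair share the non-failing sample, so they are not independent of each other.

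**Figure D4:**
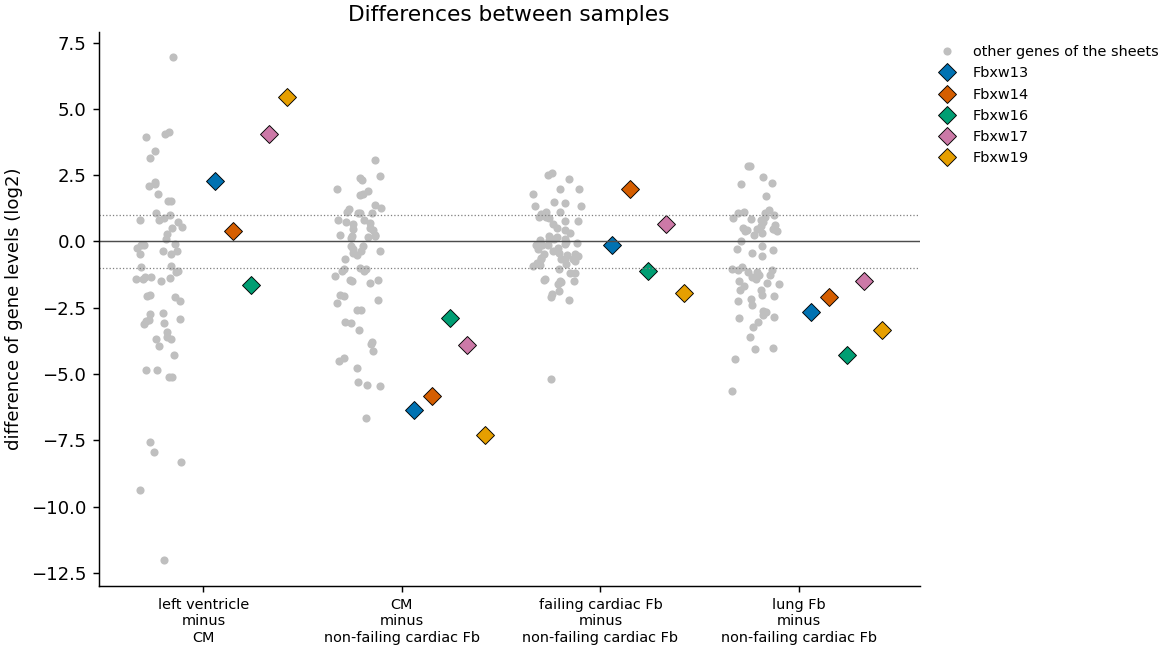
Difference of gene levels on the log2 scale (vertical axis) in the 4 pairs of samples, with diamonds for the 5 member genes, grey points for the other 66 genes of the sheets and dotted lines at 2-fold. All 5 diamonds lie under the lower dotted line in CM and in lung fibroblasts against non-failing cardiac fibroblasts, and on both sides of 0 in the other 2 pairs.

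The other 8 Fbxw genes of the sheets, Fbxw2, Fbxw4, Fbxw5, Fbxw7, Fbxw8, Fbxw9, Fbxw10 and Fbxw11, served as a comparison. Among them are Fbxw7, which targets cyclin E and Myc, and Fbxw11, a beta-TrCP that targets beta-catenin. A level of at least 6.0 was reached by 5 of the 8 in left ventricle, 5 in CM, 6 in failing cardiac fibroblasts, 3 in lung fibroblasts and 6 in non-failing cardiac fibroblasts, against 2, 0, 5, 1 and 5 of the 5 member genes in that order. In CM against non-failing cardiac fibroblasts, Fbxw8 was counted as lower and Fbxw5 and Fbxw7 as higher, and the median difference of the 8 was -0.34, compared with -5.82 for the members. In lung against non-failing cardiac fibroblasts, 4 of the 8 were lower and 1 higher. Fbxw10, at 0.89, and Fbxw9, at 4.70, lay within the range of the members in CM, 0.18 to 5.42. Against non-failing cardiac fibroblasts, CM differed by -4.13 for Fbxw10 and -1.12 for Fbxw9. Both stayed under 6.0 in these samples and so were not counted, while Fbxw5, Fbxw7 and Fbxw11 were higher in CM. Cul1, the scaffold of SCF ligases, was read by 1 probe set at 0.00 in left ventricle, 9.38 in CM, 5.63 in failing cardiac fibroblasts, 8.73 in lung fibroblasts and 6.31 in non-failing cardiac fibroblasts. Cul1 was thus highest in CM, where 0 of the 5 members reached 6.0, and lowest in left ventricle, where 2 did. Its left ventricle value lay under the lower quartile of that sample, 1.96, and is not shown to lie above background. A relation between Cul1 and the members was not tested.

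The genes whose levels lay closest to each member over the 5 samples were found by the root mean square difference, out of 66 other genes. This measure includes differences in probe binding and says nothing of shared control. For Fbxw13 these were Fbxl2 (0.67) and Cul9 (0.94), against a median of 2.78 over all 66 genes. Fbxw14 lay closest to Fbxl8 (0.84) and Fbxo24 (1.46), with a median of 3.65. The closest to Fbxw16 were Fbxo41 (0.47) and Fbxw8 (0.90), with a median of 2.0. The closeness of Fbxo41 is one of means, as its 2 probe sets read -1.0 and 9.16 in left ventricle, where those of Fbxw16 read 1.49 and 6.07. Fbxw17 lay closest to Fbxo5 (0.88), the Emi1 inhibitor of the anaphase-promoting complex, and to Fbxl21 (1.23), with a median of 2.51. Fbxl21, an F-box protein that targets cryptochromes, was also the closest to Fbxw19 (0.65), followed by Fbxl2 (1.49), with a median of 2.93. Fbxl21 and Fbxl2, which each stood close to 2 members, had 1 probe set each and CM as their lowest sample, at 2.51 and 1.82.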

How the data were processed

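RNA of 5 pooled samples was hybridised to Affymetrix arrays. Per the labels and methods the array was the Mouse Expression Set 430, although the labelling kit and the Exon Array Computational Tool named in the records belong to whole-transcript arrays. The authors deposited log2 expression levels for the 130 probe sets of 2 sheets, and a whole-array table of linear intensity for 45101 probe sets. For all 7 member probe sets both forms held the same value within 1 percent or 0.01 units. Labels and methods do not say how background was corrected, probes summarised or arrays normalized. The 4 columns of differences between samples in each sheet are the authors' own comparisons and were not used.

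A gene's level was the mean log2 value of its probe sets. All member probe sets were described, with the other Fbxw genes, Cul1, and the 2 genes nearest to each member by root mean square difference. The threshold of 6.0 is the lower one in the methods. Members and lists were chosen with earlier results of these data known. Precision is limited by the number of arrays, 1 per condition, so that differences were described without a test. Alternatives were the median or highest probe set, omission of _s_at and _x_at probe sets or of those naming several genes, the whole-array table, equal medians, quantile normalization, 6.5 for 6.0, 1.5-fold, no level rule, and probe sets all in 1 direction. Promoter windows were aligned with Biopython 1.88. Python 3.11.15, pandas 2.3.3, NumPy 2.4.6 and matplotlib 3.10.9 were used, and the functions were tested on simulated data.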

Additional observations from a re-analysis of the deposited data

How the results depend on the processing

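The counts of 5 genes lower in CM and in lung fibroblasts than in non-failing cardiac fibroblasts were 4 each with equal medians, with quantile normalization, without _s_at and _x_at probe sets and without probe sets naming several genes, and 4 in the lung pair with the highest probe set. Under those first 4 settings the count of 5 genes at 6.0 in non-failing cardiac fibroblasts was also 4. Every member kept its direction in these 2 pairs under all 7 alternatives that gave a gene level, but not all of these could change a level. The median of at most 2 probe sets equals their mean, and the whole-array table held the same values. For Fbxw13, Fbxw17 and Fbxw19, with 1 probe set each, only equal medians and quantile normalization could change the level. The shift applied by equal medians was 1.33 in left ventricle, -0.14 in CM, -0.42 in failing cardiac fibroblasts, -0.18 in lung fibroblasts and -0.58 in non-failing cardiac fibroblasts. The count of 1 gene over 6.0 in lung fibroblasts was 0 with equal medians, 0 with quantile normalization and 0 at 6.5. Of 2 probe sets below the lower quartile in lung fibroblasts, 1 remained in the count without probe sets named _s_at or _x_at, and 1 without those naming several genes. In left ventricle against CM, 1 gene in place of 0 was lower without the level rule, and the sign of Fbxw14 and of Fbxw16 turned under 2 alternatives each, to -3.42 for Fbxw14 without 1436744_x_at, and to 0.61 with the highest probe set and 0.29 with quantile normalization for Fbxw16. In failing against non-failing cardiac fibroblasts, 2 genes in place of 1 were higher with quantile normalization and 2 at 1.5-fold, while 1 in place of 2 was lower with equal medians and 1 when all probe sets had to differ in 1 direction. The difference of Fbxw13 in that pair, -0.12, was at most 0.04 under the alternatives. No cause of these changes was tested, beyond what each alternative leaves out. No paired analysis was possible because there was a single sample for each condition, and no replicate could be left out for the same reason.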
